A study of Mus musculus with 16 samples.

Results

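The promoters of 10 genes of the growth hormone and insulin-like growth factor (IGF) axis were followed in Promoter Capture Hi-C (P-CHi-C) data from mouse liver. In P-CHi-C, chromatin is crosslinked and cut with HindIII, fragment ends lying close together are joined, and products that hold a promoter fragment (a bait) are captured and sequenced. A member's bait is the HindIII fragment that holds the start of its gene record in the GENCODE annotation of build mm9. All 10 genes, Ghr, Igf1, Igfals, Igfbp1, Igfbp2, Stat5a, Stat5b, Socs2, Cish and Bcl6, had a bait of their own, 10 of 18165 baits in the data. Baits were taken from the lists of contacts, so captured fragments without a listed contact are not among the 18165. Livers came from wild-type male C57BL/6 mice, labelled as 8 weeks old, kept in 12 h light and 12 h dark with free access to food, and were taken at zeitgeber time (ZT, hours after lights on) 0, 6, 12 and 18, with lights off at ZT12. Each timepoint had 3 pools of 2 livers. Whole liver holds several cell types, and DNA contacts carry no marker genes, so the cell types behind a contact were not checked.

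Contacts had been called on the merged pools of each timepoint. The data are therefore 1 list per timepoint, and no difference between timepoints has a replicate check or a test. A contact is a pair of fragments whose CHiCAGO score, a measure of how far its reads exceed those expected from distance and noise, was at least 5. A pair absent from a list may have scored just under this minimum. The lists held between 146262 pairs (ZT0) and 154775 pairs (ZT6), and 247177 distinct pairs over the 4 timepoints. The read depth of the lists was not analysed here. A summary of the study places the totals of 3 of the lists under other timepoints, and under it the lists named here ZT6, ZT12 and ZT18 would be ZT18, ZT6 and ZT12. The sample labels were followed throughout.

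Growth hormone from the pituitary binds its receptor, Ghr, on hepatocytes, and the kinase JAK2 then phosphorylates STAT5A and STAT5B, which enter the nucleus and bind DNA at the palindrome TTCNNNGAA. The liver answers with Igf1, which circulates in a complex with a binding protein and the acid-labile subunit encoded by Igfals, while Igfbp1 and Igfbp2 encode smaller carriers under strong control by insulin and feeding. Socs2 and Cish encode feedback inhibitors of receptor signalling, and Bcl6 encodes a repressor that occupies many STAT5 sites in liver. Pituitary release is pulsatile and differs between the sexes, and feeding and the clock act on the same axis.

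Because STAT5 is the factor of this pathway, the sequences of the bait fragments were read for TTCNNNGAA, a motif that is its own reverse complement, so that a search of 1 strand covers both. The feedback inhibitors Cish and Socs2 and the repressor Bcl6 held runs of closely spaced matches, and these are the stretches shown here, 5′ to 3′ on the gene's strand, with matches in capitals.
Cish, chr9:107198990-107199009, + strand: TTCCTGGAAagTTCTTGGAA
Cish, chr9:107199095-107199120, + strand: TTCTAGGAAgatgaggcTTCCGGGAA
Bcl6, chr16:23988701-23988724, - strand: TTCTTAGAActggggTTCTTAGAA
Socs2, chr10:94879498-94879597, - strand: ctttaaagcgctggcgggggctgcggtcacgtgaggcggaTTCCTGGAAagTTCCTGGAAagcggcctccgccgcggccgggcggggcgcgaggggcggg
The coordinates are mm9. The Cish and Bcl6 stretches lay in annotated untranslated exons of their genes and the Socs2 stretch in an intron.

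The bait fragment of Cish held 8 matches in 6246 bp, 4 of them between 633 and 755 bp after the gene start. RefSeq (GRCm38.p6) places a Cish start at the first of these 4 matches. On the Bcl6 bait there were 6 matches in 6550 bp, 4 of them between 191 and 255 bp after the start. Each of these fragments thus held 4 matches within a window of 250 bp, which 7 of 18164 baits on the nuclear chromosomes did (0.0385%). The Socs2 and Stat5a baits held 2 matches within 250 bp, and 13.7% of all baits held at least that many. Igfals and Igfbp2 held 3 matches each, spaced farther apart, and 76.7% of all baits held at least 1. In Ghr, Igf1, Igfbp1 and Stat5b these letters did not occur on the bait fragment. Their baits were 1914, 3208, 2335 and 1918 bp long. Those of Igfbp2, Stat5a and Igfals were 5048, 6497 and 8755 bp, and that of Socs2 was 1347 bp. The shares over all baits were not matched for fragment length. A match is a description of the sequence and was not set against STAT5 binding.

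**Figure D1:**
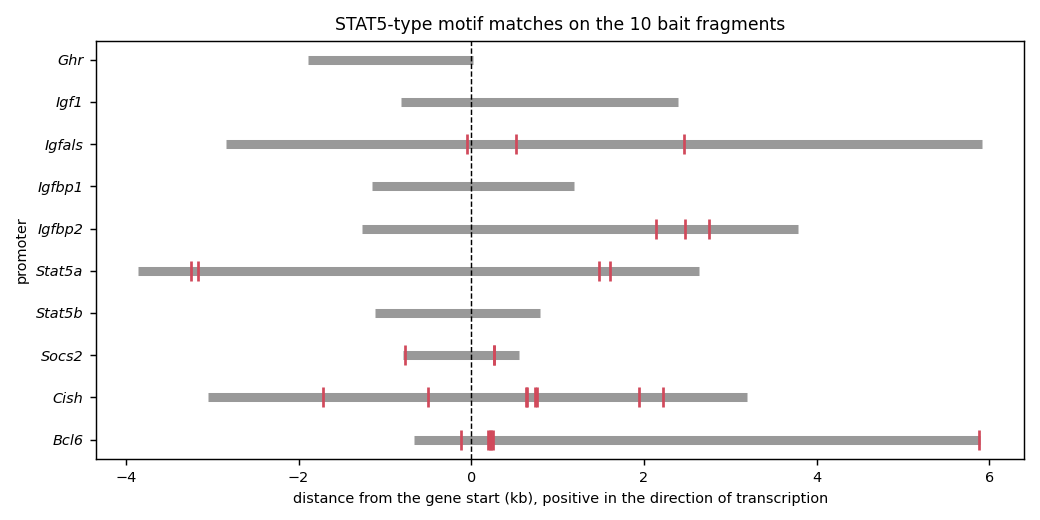
Matches of TTCNNNGAA on the 10 bait fragments. The x axis is the distance from the gene start in kb, grey bars are the bait fragments and red ticks the matches; those of Cish and Bcl6 crowd just after the gene start, and Ghr, Igf1, Igfbp1 and Stat5b have none.

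In the 250 bp before the gene start, 2 of the 10 promoters held the motif, against 6.83% of 22367 protein-coding genes. The 2 promoters are shown because they hold the matches in that window before a GENCODE gene start, 118 bp before it in Bcl6 and 47 bp before it in Igfals (mm9, 5′ to 3′ on the gene's strand).
Bcl6, chr16:23988939-23989188, - strand: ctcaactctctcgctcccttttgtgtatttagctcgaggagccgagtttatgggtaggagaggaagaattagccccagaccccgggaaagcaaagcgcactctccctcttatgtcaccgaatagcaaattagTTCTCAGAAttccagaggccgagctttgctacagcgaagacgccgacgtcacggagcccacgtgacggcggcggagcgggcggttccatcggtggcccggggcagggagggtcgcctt
Igfals, chr17:25014350-25014599, + strand: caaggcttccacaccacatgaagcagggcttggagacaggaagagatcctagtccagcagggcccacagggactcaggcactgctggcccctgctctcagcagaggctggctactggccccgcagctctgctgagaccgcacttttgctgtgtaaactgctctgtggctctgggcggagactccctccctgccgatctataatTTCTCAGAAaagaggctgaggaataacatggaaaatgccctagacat

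The count depended on which start was used. RefSeq (GRCm38.p6) gave 16 windows, from 250 bp before to 50 bp after a start, for 9 of the 10 members, all but Socs2. A match was found in 5 of the 16, those of Bcl6, Cish and Igfals, where 8.30% of 32851 RefSeq windows held at least 1. By gene, 3 of the 9 had a match, some of them with several windows. No share by gene was computed over all genes. At a Bcl6 start inside the gene the window held 3 matches, as 11 of all 32851 windows did (0.0335%).

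Over the 4 timepoints the 10 promoters had 380 contacts, all within their own chromosome. The number per member ran from 141 for Ghr, 76 for Igf1, 57 for Bcl6 and 27 for Cish, through 19 for Igfals, 17 each for Igfbp2 and Socs2, 14 for Stat5a and 11 for Igfbp1, to 1 for Stat5b. The receptor, the hormone and the repressor thus held most of them, and 9 of 10 members lay above the median of all baits, which was 9 contacts. Ghr had more contacts than 99.9% of baits, Igf1 more than 98.2% and Bcl6 more than 95.8%. Captured fragments without a listed contact are left out of the median and of these shares. The 2 STAT5 genes, which start 8.63 kb apart on chromosome 11, stood at opposite sides of that median.

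The members had 215 contacts in the ZT0 list, 252 in that of ZT6, 275 in that of ZT12 and 241 in that of ZT18. Ghr alone gave 76, 105, 114 and 90 of these, and the other 9 members together 139, 147, 161 and 151, so that both series were lowest at ZT0 and highest at ZT12. Without Ghr the place of the highest count changed with the minimum score: at 7 or more the 9 members had 76, 89, 87 and 84 contacts, highest at ZT6, and at 10 or more 46, 48, 49 and 53, highest at ZT18, with ZT0 lowest at both. With the other order of the lists the highest total, 275, falls at ZT6. All 4 lists held 132 of the 380 contacts (constant contacts below), or 34.7% (95% Wilson interval 30.1 to 39.7%), against 32.5% of all pairs. Those listed at 1 timepoint only numbered 113, or 29.7% (25.4 to 34.5%), against 35.2% of all pairs; without Ghr the share was 34.3%. These intervals cover counting error only, and neighbouring fragments contacted by 1 bait are not independent. When another end within 10 kb was accepted as the same contact, 76.6% of the contacts were found at all 4 timepoints and 5.26% at 1 only. Fragments in long runs have many such neighbours, and no share over all pairs was computed under this rule. Joined into places with gaps of at most 10 kb, 36 of 72 places were found at all 4 timepoints and 16 at 1 only. Places differed in size, from 1 fragment (21 of the 72) to 61. No such counts were made over all baits, here or for single members below.

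**Figure D2:**
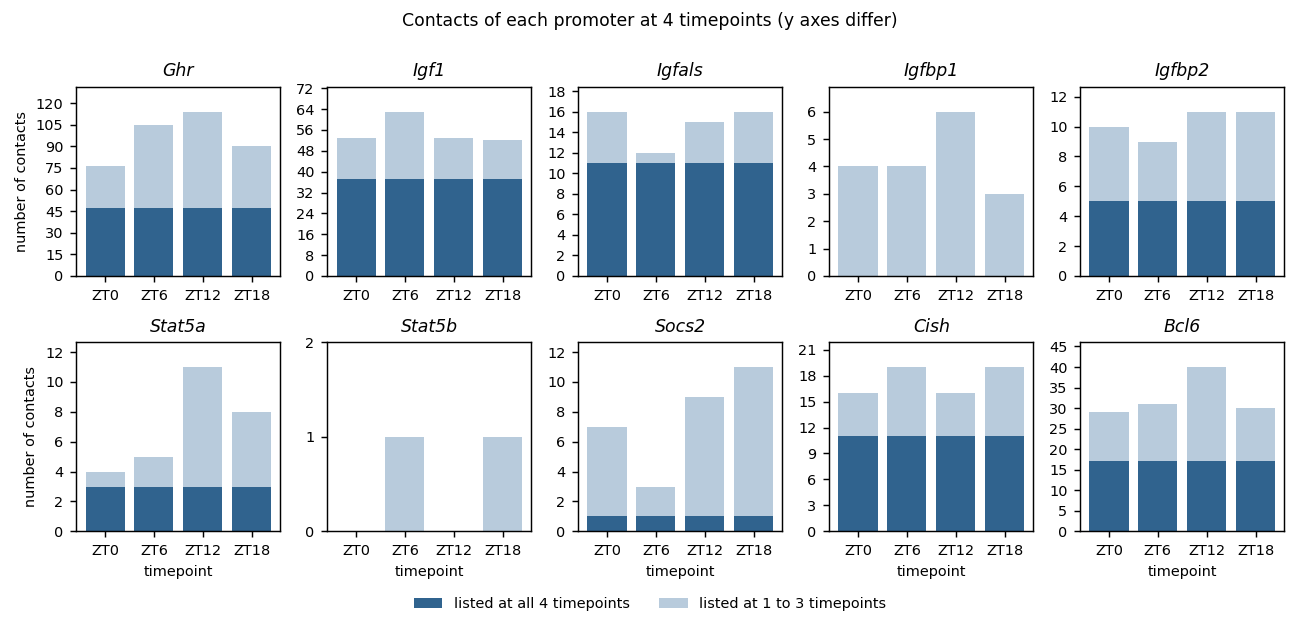
Number of contacts of each promoter at ZT0, ZT6, ZT12 and ZT18 (1 merged list each, so no error bars). Dark bars are contacts listed at all 4 timepoints and light bars the rest; Ghr has 47 of the former and Igf1 37, while Igfbp1 and Stat5b have none.

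Among the 9 members with at least 10 contacts, 3 held at least 2 times as many contacts at their highest timepoint as at their lowest: Stat5a (4, 5, 11 and 8 contacts at ZT0, ZT6, ZT12 and ZT18), Socs2 (7, 3, 9 and 11) and Igfbp1 (4, 4, 6 and 3). Over all baits with at least 10 contacts this held for 24.4% of 8819. All 3 members had few contacts, at most 17, and Igfbp1 dropped under the factor of 2 once counts were divided by the list totals. Ghr, Stat5a, Igfbp1 and Bcl6 were highest at ZT12 alone, Igf1 at ZT6 and Socs2 at ZT18, and the remaining members had a tie. Of all baits with at least 10 contacts, 16% were highest at ZT0 alone, 25.4% at ZT6, 20.9% at ZT12 and 20.4% at ZT18. When only scores of 7 or more were counted, Bcl6 was highest at ZT6 (17, 21, 18 and 20) and Stat5a had 1, 2, 2 and 2 contacts. With the other order of the lists the peaks at ZT12, ZT6 and ZT18 fall at ZT6, ZT18 and ZT12.

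Pooled over the members, contacts spanned a longer median distance than all pairs, and a smaller share had a bait at both ends. The median distance between fragment midpoints was 213 kb (95% interval from the order statistics 190 to 244 kb), against 162 kb over all pairs, and 66.1% of contacts spanned more than 150 kb (61.2 to 70.6%), against 53.3%. A bait stood at both ends in 26 contacts, a share of 6.84% (4.71 to 9.84%), against 15.4% of all pairs. The members were not alike in this. Igfals had 6 such contacts of 19 (31.6%, 15.4 to 54.0%) and Cish 7 of 27 (25.9%, 13.2 to 44.7%), both above the share of all pairs, and the median distances of Igfals (58.6 kb), Stat5a (69.3 kb) and Igfbp2 (97.9 kb), and the 107 kb of the only Stat5b contact, were below that of all pairs. By protein-coding annotation the contacted fragments held a gene start in 21 cases, another exon in 58, only intron in 107 and no gene in 194. No shares of these classes over all pairs were computed, so they are not set against other promoters. Gene-free below means without a protein-coding gene, since noncoding genes were not looked for in this annotation. Of the contacts, 212 lay upstream and 168 downstream of the member's start, and 67 within the member's own gene, 53 of them in Ghr and 14 in Igf1. No contact joined 2 of the 10 promoters.

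The receptor gene Ghr (chr15:3267760-3533492, minus strand) had contacts on both sides of its start, 70 upstream and 71 downstream, out to 409 kb. Its strongest contacts lay in a gene-free stretch 324 to 326 kb upstream. The fragment chr15:3857334-3858907 scored 40.08, 42.39, 35.40 and 32.88 at ZT0, ZT6, ZT12 and ZT18, and chr15:3860425-3861359 scored 34.29, 34.19, 46.36 and 33.55. Inside the gene the highest score was that of an intronic fragment 142 kb downstream, chr15:3392452-3393126, with 13.61, 22.18, 15.36 and 20.39. It belonged to a run of 18 adjoining contacted fragments, chr15:3357779-3402833.

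Both sides of the Ghr start differed in how the contacts were spread over the day. Upstream there were 47, 47, 59 and 46 contacts at ZT0, ZT6, ZT12 and ZT18, and 42.9% of the 70 were listed at all 4 timepoints. Downstream, the numbers were 29, 58, 55 and 44, and 23.9% of the 71 were listed at all 4. ZT12 thus had 12 more listed contacts than ZT0 upstream and 26 more downstream. Most of the downstream contacts formed 1 group over 248 kb, with gaps of at most 10 kb, which covers much of Ghr and the neighbouring Sepp1 (selenoprotein P, a selenium carrier made by the liver) and Ccdc152, and held 27, 51, 50 and 41 contacts. The nearest upstream group, 15 fragments over 61.7 kb, held 15, 12, 15 and 14. Ghr had a ratio of highest to lowest timepoint of 1.5 and a share of 33.3% at all 4 timepoints, where the 110 baits with at least 100 contacts had medians of 1.20 and 49.3%.

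Scores of the 47 constant Ghr contacts had medians of 8.65, 9.13, 10.62 and 9.37 in the same order. Of these 47, 24 had their highest score at ZT12, 11 at ZT6, 7 at ZT0 and 5 at ZT18. Over all 80235 constant pairs the medians were 8.75, 8.95, 8.98 and 8.98, and 20520 were highest at ZT12. For the 17 constant contacts inside the Ghr gene the medians were 8.22, 11.07, 12.58 and 10.08, and for the 30 upstream ones 8.70, 8.59, 9.95 and 9.34.

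**Figure D3:**
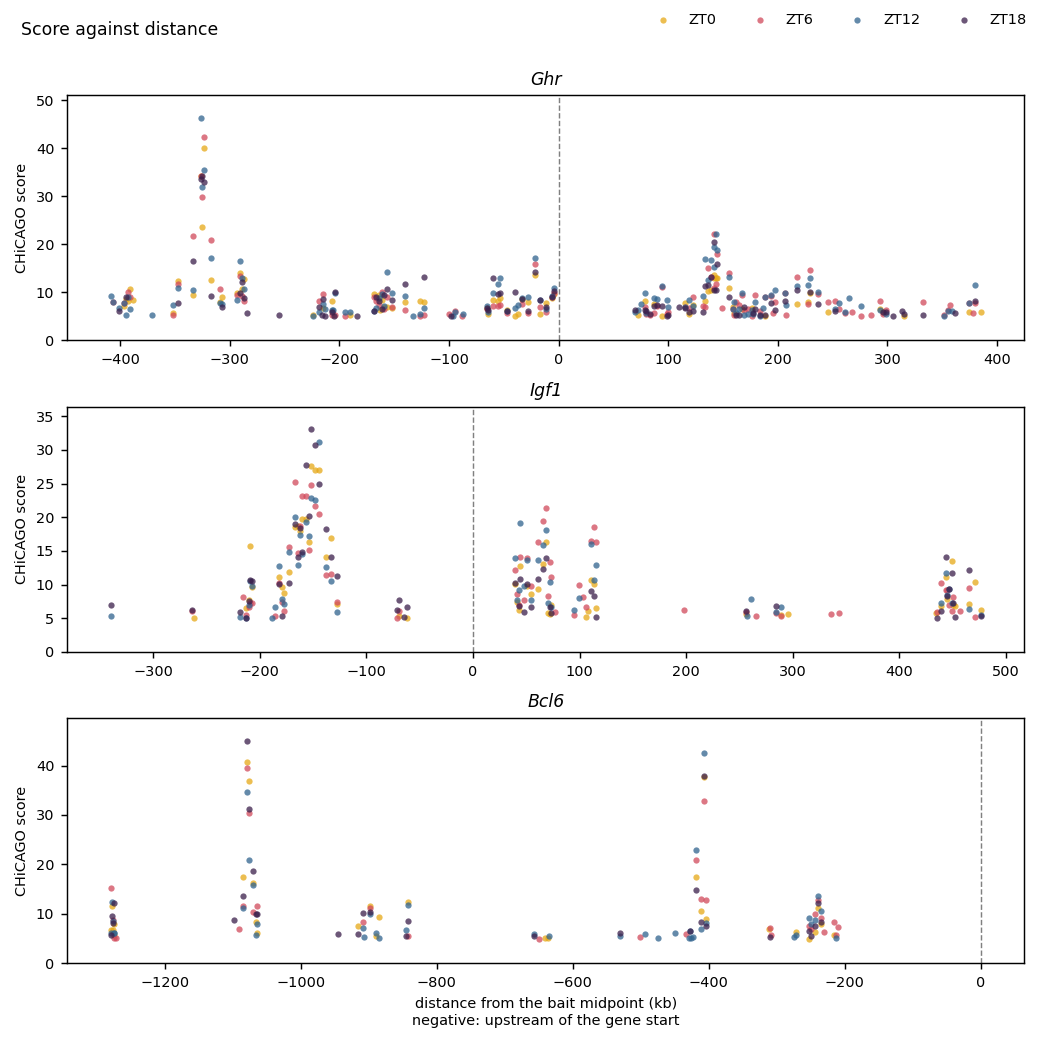
CHiCAGO score of every listed contact of Ghr, Igf1 and Bcl6 against its distance from the bait midpoint in kb, negative upstream, with 1 colour per timepoint. Ghr has contacts on both sides, the highest scores of Igf1 lie 144 to 157 kb upstream, and all contacts of Bcl6 lie upstream with peaks near 408 and 1079 kb.

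Igf1 (chr10:87321010-87399792, plus strand), the growth factor gene, had 53, 63, 53 and 52 contacts at ZT0, ZT6, ZT12 and ZT18, and 37 of its 76 were constant (48.7%, 37.8 to 59.7%). Its main partner was a gene-free block of 18 adjoining fragments upstream, chr10:87131888-87198825, with 16, 17, 18 and 15 contacts. In the middle of the block, chr10:87168712-87170950, 152 kb from the bait, scored 27.67, 24.76, 22.82 and 33.09. A further set lay in the 3′ part of the gene, 14 fragments with 12, 14, 13 and 11 contacts, and another around Dram1 (a gene of autophagy), 434 to 476 kb downstream, with 10, 10, 7 and 10. The 10 constant contacts within the gene had median scores of 9.64, 13.66, 13.63 and 10.16, and the 19 constant contacts upstream 16.33, 14.65, 12.87 and 14.11, so the upstream contacts were lowest in median score at ZT12, when contacts in the gene body were near their highest. The next fragment, chr10:87323408-87328209, was a bait too and holds the start of Gm16176 and other Igf1 transcript starts. All 27 of its contacts were with fragments that the main bait contacted as well, the closest likeness among all baits (Jaccard index, the shared share of the contacted fragments of both baits, 0.355).

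Igfals (chr17:25014600-25018955) encodes the acid-labile subunit. It had 16, 12, 15 and 16 contacts, 11 of 19 of them constant, and 18 lay upstream, among gene starts. They formed 2 groups of 9 fragments, 30.2 to 58.6 kb and 132 to 162 kb away. The fragment with the start of Fahd1 (a mitochondrial hydrolase) and exons of Hagh (a glyoxalase) scored 13.57, 11.88, 16.10 and 13.58, and that with the start of Sepx1 (a methionine sulfoxide reductase) 11.97, 9.49, 17.03 and 15.76. A further fragment was intronic in Hagh, chr17:24980195-24981293, with 14.10, 9.15, 11.53 and 15.48. At each of these 3 fragments ZT6 had the lowest score. The adjoining bait with Nubp2 and Spsb3 starts shared 18 of the 19 contacted fragments (Jaccard index 0.818), the highest likeness found for any member.

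The 2 IGF carriers controlled by insulin had few contacts of high score, and part of their contacts were distant. None of Igfbp1 and 1 of the 17 of Igfbp2 reached a score of 10 at any timepoint, against 21.5% of all pairs. Igfbp1 (chr11:7097785-7102549) had 11, all downstream at 938 to 1313 kb, none of them constant and none with a score above 7.78. Its contacts fell into 5 groups, of which the one at 1036 to 1058 kb (3, 2, 3 and 1 contacts) was found at every timepoint, and the farthest lay in introns of Tns3 (tensin 3, an adhesion protein). The bait most like it, that of Gm11985 9.42 kb away, shared 3 of the 11 (Jaccard index 0.273). The nearby bait of Igfbp3, the main carrier of circulating IGF1, 16.9 kb away, shared 7 of the 11 (Jaccard index 0.233). Igfbp2 (chr1:72871077-72899048) had 10, 9, 11 and 11 contacts. Of these 17, 11 lay upstream within 115 kb, led by the fragment with the start of Rpl37a (a ribosomal protein) at 10.31, 10.94, 9.06 and 10.36, and all 5 constant ones were among them. The other 6 lay 801 to 1006 kb downstream and numbered 4, 0, 4 and 1 in the 4 lists. The Igfbp2 contacts were most like those of the Rpl37a bait (Jaccard index 0.182).

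Stat5a (chr11:100720665-100746483, plus strand) and Stat5b (chr11:100642045-100712038, minus strand) lie head to head. The single contact of Stat5b was with an exonic fragment of Ptrf (cavin 1, a coat protein of caveolae), chr11:100818274-100820882, with scores of 5.08 at ZT6 and 6.82 at ZT18. The same fragment was the strongest contact of Stat5a, at 10.67, 7.11, 11.34 and 12.94, and no other fragment was contacted by 2 members. Of the remaining 13 contacts of Stat5a, 8 lay in the body of Stat5b, with 2, 3, 6 and 6 contacts at ZT0, ZT6, ZT12 and ZT18, and 3 touched Stat3, which encodes a related factor. One of those 3 was the Stat3 start, listed at ZT18 with a score of 5.88. Of the 14 Stat5a contacts, 1 reached a score of 10 at any timepoint, against 21.5% of all pairs. The bait most like that of Stat5a held Hspb9 and Kat2a (Jaccard index 0.136).

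**Figure D4:**
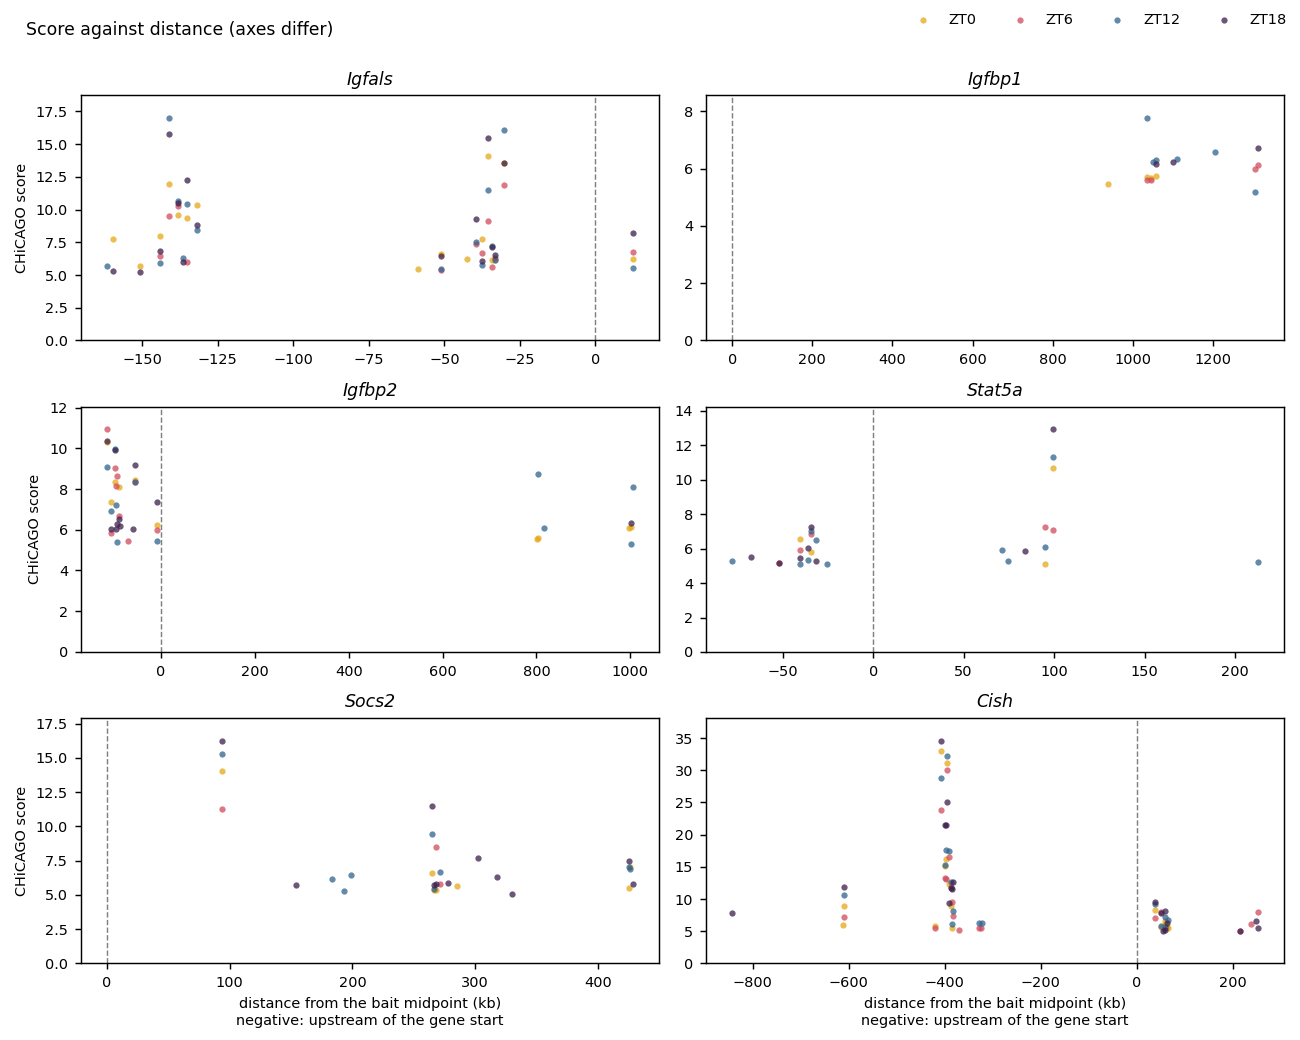
CHiCAGO score of every listed contact of Igfals, Igfbp1, Igfbp2, Stat5a, Socs2 and Cish against its distance from the bait midpoint in kb, negative upstream, with 1 colour per timepoint and axes that differ between panels. Igfbp1 and Socs2 have contacts downstream alone, and the Cish scores peak 395 to 408 kb upstream.

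Socs2 (chr10:94847996-94879814, minus strand), a feedback inhibitor, shared its bait with the start of 5730420D15Rik. All 17 contacts lay downstream, beyond the 3′ end of the gene. One was constant, the start of Cradd (an adaptor of cell death receptors) 93.4 kb away, with 14.07, 11.25, 15.27 and 16.26. The next, a gene-free fragment 265 kb away, scored 6.62 at ZT0, 9.42 at ZT12 and 11.48 at ZT18 and was not listed at ZT6. Grouped within 10 kb, contacts at 2 of 7 places were found at every timepoint, and 4 places were found at a single one, 3 of these at ZT18. All 16 contacts other than Cradd itself were with fragments that the Cradd bait, which had 54, contacted too.

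Cish (chr9:107198357-107205115, plus strand), the other inhibitor, had 16, 19, 16 and 19 contacts and shared its bait with Gm17040. Its 2 strongest partners were the fragment with the starts of Manf (a secreted protein of endoplasmic reticulum stress) and Rbm15b, 408 kb upstream, at 33.04, 23.86, 28.72 and 34.60, and a fragment in the neighbouring Dock3 at 31.18, 30.06, 32.17 and 25.14. Together with neighbouring fragments they formed a group of 10 fragments over 53.3 kb, with 8, 10, 8 and 8 contacts. On the other side, the fragment with the starts of Hemk1 and 6430571L13Rik, 37.5 kb downstream, scored 8.25, 7.10, 9.21 and 9.57. Over the 11 constant contacts the median scores were 8.87, 11.84, 12.71 and 11.72, but 7 of the 11 had their highest score at ZT18, 3 at ZT12, 1 at ZT6 and none at ZT0. All 11 contacts of the adjoining Mapkapk3 bait were shared with Cish (Jaccard index 0.407).

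Bcl6 (chr16:23965138-23988938, minus strand), the repressor, had 29, 31, 40 and 30 contacts. All 57 were upstream, 210 to 1280 kb away, across Lpp (a LIM domain protein of cell adhesions) and beyond it, with none inside Bcl6 or downstream. A gene-free fragment 1079 kb away, chr16:25064140-25067256, scored 40.65, 39.45, 34.65 and 45.03, and the fragment with the Lpp start, 408 kb away, 37.68, 32.90, 42.58 and 37.86. Of the 15 places contacted, 7 were found at every timepoint. The surplus at ZT12 over ZT0, 11 contacts, did not extend to the strong ones, for at a score of at least 7 the numbers were 17, 21, 18 and 20. Among the 17 constant contacts the median scores were 11.22, 11.53, 10.58 and 10. The Lpp bait shared 41 of the other 56 contacted fragments (Jaccard index 0.285).

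The Lpp start fragment, the strongest partner of Bcl6 with a protein-coding start, held the stricter motif TTCCNGGAA 2 times, and for this reason those stretches are shown (mm9, + strand, motif in capitals). The first lies in an exon of 1110054M08Rik and the second in an intron of Lpp. Among the top-scoring constant fragments, 1 of Socs2, 1 of Stat5a and 1 of Igfals held the stricter motif 1 time each. These counts are over whole fragments, which differ in length. How many other listed fragments hold it 1 or 2 times over their whole length was not counted.
Bcl6 contact, chr16:24392814-24392922: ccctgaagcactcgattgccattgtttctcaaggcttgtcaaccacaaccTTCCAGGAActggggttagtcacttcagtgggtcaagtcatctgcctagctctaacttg
Bcl6 contact, chr16:24394187-24394295: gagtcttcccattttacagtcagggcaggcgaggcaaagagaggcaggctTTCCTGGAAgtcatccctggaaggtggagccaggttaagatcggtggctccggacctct

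**Figure D5:**
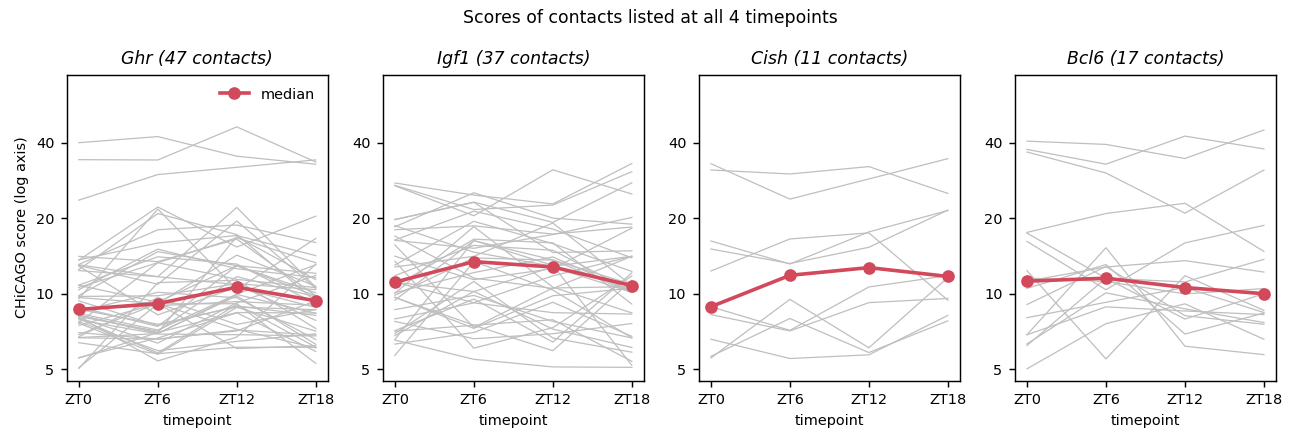
CHiCAGO scores (log axis) at the 4 timepoints of the contacts listed at all of them, for Ghr, Igf1, Cish and Bcl6. Grey lines are single contacts and the red line their median, which for Ghr is 8.65 at ZT0 and 10.62 at ZT12; for Cish it is 8.87 and 12.71, though 7 of its 11 lines peak at ZT18.

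Contacted fragments of at least 1 kb were read for TTCNNNGAA in their central 1 kb. The motif occurred in 96 of 301 fragments contacted by members, 31.9% (26.9 to 37.4%), against 27.3% of 103620 other listed fragments, so the interval includes the latter share. Among contacts with a score of at least 7 the share was 36.0% (29.2 to 43.5%), against 26.8% of 63329 other fragments, and at 10 or more it was 37.5% (28.1 to 47.9%), against 26.3% of 34390. Both of these intervals lie above the share of the other fragments, but the sets compared differ in kind. The other fragments include the captured baits, whereas 6.84% of the 380 member contacts had a bait as their other end. The intervals cover counting error only, and no test was run. The stricter TTCCNGGAA occurred in 2.33% (1.13 to 4.72%), against 2.80%. By member the share was highest for Socs2 among those with at least 10 such fragments, 9 of 14, and lowest for Igfbp2, 1 of 13, with Cish at 3 of 23. Fragments contacted at all 4 timepoints held it in 33.6% (25.4 to 43.0%) and those contacted at fewer in 31.3% (25.2 to 38.1%).

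A wider list of 33 genes of the axis (ligands, receptors, kinases, adaptors, other STATs, phosphatases, binding proteins and their regulators) had 32 with a bait at the gene start. The exception, Igf1r, had no bait in the lists there, which does not tell whether its promoter was captured. The median of the 32 was 21.5 contacts, beside 18 for the 10 members and 9 for all baits, and 22 of the 32 lay above the median bait. Of their 778 contacts 36.5% were listed at all 4 timepoints, against 32.5% of all pairs. By timepoint, 481, 509, 480 and 508 were listed at ZT0, ZT6, ZT12 and ZT18, with ZT12 lowest and ZT6 highest. The most contacts were those of Onecut1 (a liver transcription factor that growth hormone controls; 76, with 51, 64, 51 and 42 by timepoint) and Irs1 (the insulin receptor substrate; 68, with 43, 45, 29 and 39). Prlr, Socs6 and Stc2 had 1 contact each. Of 22 genes with at least 10 contacts, 1 reached the factor of 2 between timepoints, Stat6 with 15, 10, 27 and 27, named after its values were seen. Over all baits with at least 10 contacts, 24.4% reached this factor. Between the promoters of the members and the wider list there was a single contact, that of Stat5a with Stat3.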

How the data were processed

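P-CHi-C libraries of 16 samples (3 pools of 2 livers at each of 4 timepoints, pool A on 2 lanes) were mapped to mm9 with HiCUP by the authors, who called contacts with CHiCAGO on merged pools. Versions are not given in the sources used here. Each deposited list gives a CHiCAGO score for every fragment pair at or above 5. Merged lists leave no replicate error, and a deeper list can hold more pairs. Groups came from the sample labels.

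Pairs were read as unordered with pandas 2.3.3 and numpy 2.4.6 (python 3.11.15) and matched to HindIII fragments of the mm9 reference (129886 of 129887 identical) and to GENCODE vM1 genes. Distances are between fragment midpoints. Shares have 95% Wilson intervals (statsmodels 0.14.6), which cover counting error only, and scipy 1.17.1 gave the interval of the median. No test was run. Counting was tested on simulated data. Motif windows came from the mm9 reference and from RefSeq, where 9 of 10 members matched. Figures used matplotlib 3.10.9.

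Genes named are the 10 members, genes starting on each member's 3 top-scoring constant fragments, those of the bait most like it, those sharing its bait, and the extremes of the wider list. Igfbp3, Dram1, Tns3, Sepp1, Ccdc152, Stat3, Ptrf, Hagh, Dock3, Hemk1 and 6430571L13Rik were named after their values were seen. The members and lists were chosen with earlier results of these data known. Alternatives were stricter scores, baits of any transcript start or within 5 kb, equal list lengths, a 10 kb tolerance, the other order of the lists, list totals, baits of the same timepoint, the gap as distance, the stricter motif and, chosen after seeing the data, leaving out Ghr, also at the stricter scores.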

Additional observations from a re-analysis of the deposited data

How the results depend on the processing

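No paired analysis was possible because each timepoint has a single list made from merged pools, and for the same reason no replicate could be left out. The numbers of contacts moved with the minimum score. Scores of at least 7 left 214 contacts, with 124, 149, 157 and 132 at ZT0, ZT6, ZT12 and ZT18. Their median distance was 178 kb, against 152 kb over all pairs at that minimum. Scores of at least 10 left 107, with 63, 69, 78 and 75, a share of 10.3% with a bait at both ends and of 37.5% holding the motif. ZT12 was highest and ZT0 lowest in the total at both minimums, but without Ghr the counts were 76, 89, 87 and 84 at 7 or more, highest at ZT6, and 46, 48, 49 and 53 at 10 or more, highest at ZT18, while Igfbp1 had no contact left at 10. Without Ghr there were 239 contacts, with 139, 147, 161 and 151, and a median distance of 252 kb. Accepting another end within 10 kb gave 76.6% at all 4 timepoints and 5.26% at 1 only, with no share over all pairs for comparison. The motif TTCCNGGAA gave 2.33%. The shares at all 4 timepoints and at 1 only stayed within their intervals at both stricter scores, with baits of any transcript start (407 contacts), with equal list lengths (372 contacts) and without Ghr. The nearest bait within 5 kb changed nothing, since every member had a bait at its start, and the gap between fragments gave a median of 207 kb. Divided by list totals, the timepoints had 222, 246, 274 and 240 contacts. The other order of the lists moved 7 of the 40 counts of single members by more than 1.5 times, equal list lengths 1, and the list totals none. Read depth, which limits which pairs reach the minimum, was not analysed here, and the causes of these differences were not tested.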
